A study of Mus musculus with 8 samples.

Results

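The genes described here are the chromosome 1 neighbours of Nr5a2, the locus that carries the floxed allele in every mouse of the study. They are the genes of the count table that lie whole within 5 Mb of either end of Nr5a2 (chr1:136842562-136960448, GRCm38), which is a window of chr1:131842562-141960448. Within the window, 3 genes of the table, Nr5a2 among them, were set aside by the rule. This left 112 members of 24823 genes in the table (0.451%), of which 90 lie on the side of lower coordinates and 22 on the side of higher coordinates. They comprise 93 protein-coding genes, 13 long noncoding RNA genes, 5 microRNA genes and Ptprv, which RefSeq lists as a transcribed pseudogene. The rule used position and, for the genes set aside, gene names, and no measured value, but earlier results of these data were known when it was made. The question was whether transcripts beside the floxed locus differ between the genotypes.

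RNA was sequenced from whole ovaries of C57BL/6-background mice on postnatal day 4, in 4 libraries labelled CON and 4 labelled cKO. CON mice had the genotype Nr5a2 f/f, Amhr2-cre +/+ and cKO mice Nr5a2 f/f, Amhr2-cre Tg/+, so both groups carry the floxed allele on both chromosomes and differ by the Cre transgene. Cre excises exons 4 and 5 of Nr5a2 in cells in which Amhr2 is or was active. The study located Amhr2 transcripts in granulosa cells and surface epithelium, and cites reports that this Cre is expressed earlier, in the embryonic gonad. Which other cells of the organ keep the intact gene is not known from these data. Litter, batch and pairing are absent from the labels, and p-values therefore measure the spread between these libraries only. In a whole organ, fewer cells of a type and less RNA per cell cannot be told apart.

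NR5A2 (LRH-1) is an orphan nuclear receptor that binds DNA as a monomer and drives genes of steroid and sterol metabolism, and in the ovary it is known from granulosa and luteal cells. An allele is inherited together with the stretch of chromosome around it, so the neighbours of a targeted gene come from the same chromosome as the allele. The neighbours of Nr5a2 have no function in common. The window holds regulators of mitosis, sarcomere and smooth muscle proteins, small proteoglycans of the matrix, chitinase-like proteins, the leukocyte phosphatase gene Ptprc and the gonadal transcription factor gene Lhx9.

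Assigned reads were between 14649243 and 29066847 per library, and the members took between 0.362% and 0.412% of them. Summed oocyte markers (12 genes) lay between 656 and 1394 CPM (reads relative to the library total, scaled with TMM factors) and summed granulosa markers (10 genes) between 634 and 817, with no marker at 0, so both labelled components of an ovary were present in every library. Nr5a2 itself had 18.5, 16.3, 15 and 12.2 CPM in CON and 31.0, 23.1, 27.9 and 27.8 CPM in cKO. Its count was thus higher in every library labelled cKO, against what the label of a knockout implies, but a count over the whole gene includes exons outside the excised ones and does not measure their loss. Amhr2, on chromosome 15, had 81.9 to 111.8 CPM in CON against 48.7 to 79.9 CPM in cKO.

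Of the 112 members, 78 had enough counts to be tested, 76 of them protein-coding genes. The remaining 34 are accounted for at the end. With both thresholds of the study (adjusted p under 0.05, fold change 1.5 or more), 3 members were higher in cKO (Igfn1, Ptprv and Crb1) and 0 were lower (edgeR quasi-likelihood test, Benjamini-Hochberg adjustment over all 15257 genes tested). By DESeq2 also 0 were lower, and 7 were lower in edgeR by the unadjusted p alone. The 3 are 3.85% of the members tested, against 1.41% of all genes tested past the same rule (0.891% higher, 0.518% lower). For an adjusted p under 0.05 with no threshold on the fold change, 4 members were higher and 2 lower, or 7.69% of those tested against 6.92% of all genes (3.64% higher, 3.28% lower). For an unadjusted p under 0.05 the members' share was 21.8% (10 higher, 7 lower) against 28.8% of all genes (15.5% higher and 13.3% lower). The 4 cKO values did not overlap the 4 CON values in 10 members, 8 higher and 2 lower, which is 12.8% against 18.0% of all genes (8.93% higher and 9.1% lower). By the rules above other than the first, therefore, the members' share was near or under that of all genes. By fold change alone, described below, it was higher. The first rule rests on 3 genes, and it gave no member at all without CON 2, CON 3, CON 4, cKO 2 or cKO 3. In these settings at most 0.41% of all genes were past it.

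**Figure D1:**
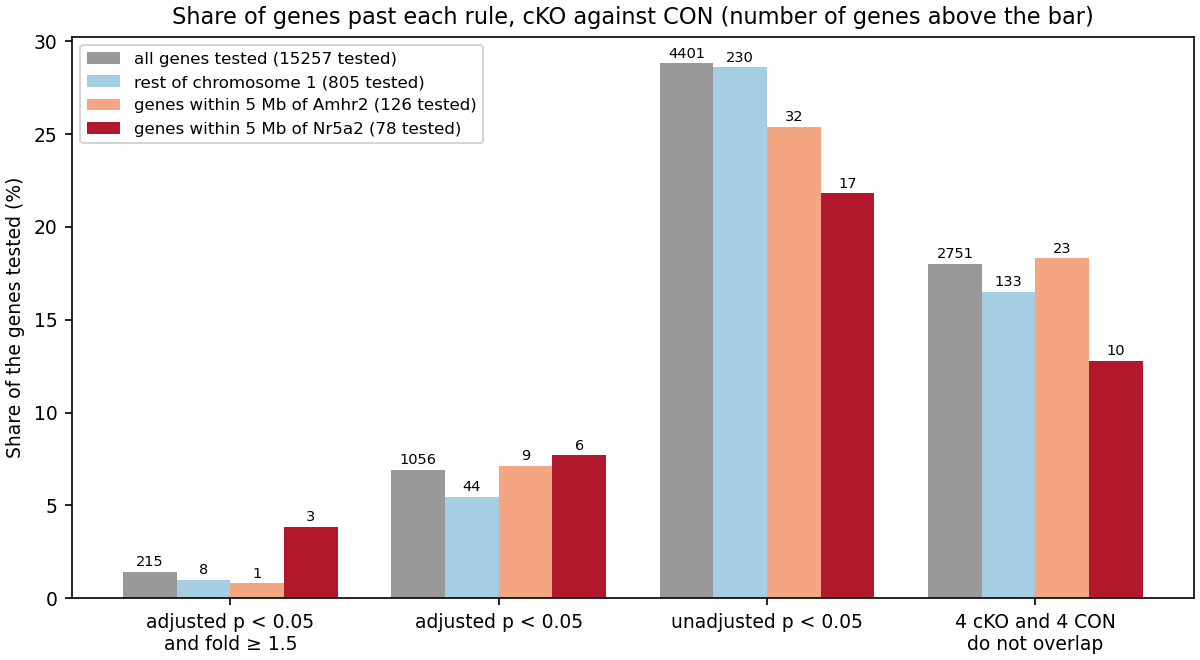
Share of the genes tested, in percent, past each of 4 rules in cKO against CON, with the number of genes above each bar, for all genes tested, the rest of chromosome 1, the genes within 5 Mb of Amhr2 and the genes within 5 Mb of Nr5a2. The members of the Nr5a2 window are above the other sets for the rule that asks for a fold change of 1.5 (3.85%), close to them for the adjusted p alone (7.69%) and below them for the other rules (21.8% and 12.8%).

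The same counts were made on other stretches of the genome. On the rest of chromosome 1, 8 of 805 genes tested (0.994%) passed with a fold change of at least 1.5 and 44 (5.47%) without that threshold. Among the genes within 5 Mb of Amhr2, whose promoter drives Cre, these were 1 of 126 (0.794%) and 9 of 126 (7.14%). The difference between the windows was not tested. The median log2 fold change of the members was 0.06, against -0.0005 over all genes, 0.01 on the rest of chromosome 1 and 0.03 around Amhr2, and 57.7% of the members were positive against 49.9% of all genes. The median of members taken library by library had a spread of 0.030 on the log2 scale between replicates. Members were somewhat noisier than the average gene. Their median SE was 0.134 against 0.0903 on the log2 scale, at a median level of 25.6 CPM against 29.6 CPM. A fold change of at least 1.5 whatever the p was seen in 13 members (16.7%), against 6.09% of all genes. It was seen in 6.96% of genes on the rest of chromosome 1 and 10.3% around Amhr2. Of these 13 members, the 10 other than Igfn1, Ptprv and Crb1 had an adjusted p above 0.05.

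Snrpe, which encodes a core Sm protein of the spliceosomal small nuclear ribonucleoproteins, fell in cKO and had the smallest p of the members (chr1:133603871-133610280, minus strand, 3.23 Mb from Nr5a2). It had 61.3, 69.7, 68.1 and 69.3 CPM in CON and 49.6, 57.7, 51.4 and 52.4 CPM in cKO. All 4 cKO values were under all CON values, with means of 52.8 ± 3.47 and 67.1 ± 3.95 CPM (SD, n = 4 each). The log2 fold change was -0.35 (edgeR SE 0.06, adjusted p = 0.0208), a fall of less than the 1.5-fold threshold. Without CON 2, CON 3, CON 4 or cKO 3 it did not pass (adjusted p 0.056 to 0.0878). A pseudogene copy of Snrpe, Snrpert, is annotated on another chromosome, and how reads shared with it were counted is not known.

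Dennd1b, on the other side of Nr5a2 (chr1:138963709-139176043, plus strand), rose in cKO. Its protein is a guanine nucleotide exchange factor for Rab35 in endosomal traffic. It had 24.6, 22.6, 22.8 and 21.8 CPM in CON and 32.8, 31.8, 27.0 and 27.1 CPM in cKO, so that the groups did not overlap and cKO 1 and cKO 2 were the highest. The log2 fold change was 0.37 (edgeR SE 0.08, adjusted p = 0.034), and it was 0.23 (adjusted p = 0.0946) without these 2 libraries. Of the settings that leave out 1 library, those without CON 2, CON 3, CON 4, cKO 2 or cKO 3 also lost the call (adjusted p 0.0509 to 0.111). The gene shares 1590 bases on the same strand with 4930596I21Rik, which had 4 counts in all.

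Ptprv (chr1:135108498-135132575, minus strand, 1.71 Mb from Nr5a2) was the most abundant of the 3 members past both thresholds. The locus is known in mouse for a receptor-type tyrosine phosphatase of bone-forming cells and testis. Its levels were 62.4, 43.3, 42.5 and 44.2 CPM in CON and 70.0, 89.3, 70.0 and 64.6 CPM in cKO. CON 1 lay near the lowest cKO library, and the other CON libraries were far below. The mean rose from 48.1 ± 9.57 to 73.5 ± 10.9 CPM (SD, n = 4 each), or 0.61 on the log2 scale (edgeR SE 0.14, adjusted p = 0.0406), which was 0.76 without CON 1 (adjusted p = 0.00813). Leaving out any other library but cKO 4 lost the call (adjusted p 0.061 to 0.126), as did testing without a filter on low counts (0.0501). The summed oocyte markers were likewise highest among CON libraries in CON 1, with 1035 CPM there and 656 to 837 CPM in the other CON libraries. In cKO 1 to 4 they were 1394, 992, 1253 and 1079 CPM. Among the cKO libraries, cKO 2 was thus highest for Ptprv and lowest for the oocyte sum. The part of oocyte content in the result was not tested. The Ptprv and Ptpn7 genes overlap over 738 bases on opposite strands, and the strand setting of the counting is not given in the sources used here.

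Igfn1 encodes an immunoglobulin and fibronectin domain protein known from the Z-disc of skeletal muscle. It was expressed at a low level, with 1.25, 1.48, 1.81 and 1.49 CPM in CON and 2.41, 2.68, 2.94 and 2.42 CPM in cKO, and every cKO library was above every CON library. The log2 fold change was 0.80 (edgeR SE 0.19, adjusted p = 0.0408), the highest of any member tested. Summed markers of skeletal muscle (12 genes) did not rise alongside, with 5.49, 7.74, 6.90 and 32.5 CPM in CON against 4.10 to 9.75 CPM in cKO. The annotated span of Igfn1 (chr1:135953205-136040925, minus strand) overlaps that of Tmem9 on the opposite strand over 26812 bases. Tmem9, a lysosomal membrane protein gene, had 93.3, 106, 109 and 106 CPM in CON and 79.9, 98.1, 91.6 and 94.4 CPM in cKO, a log2 fold change of -0.19 (edgeR SE 0.07, adjusted p = 0.124). Without a filter on low counts, or without any single library but cKO 4, Igfn1 did not pass (adjusted p 0.0521 to 0.12).

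Crb1, which encodes a crumbs protein of apical cell polarity best known from the retina, lies 2.22 Mb from Nr5a2 (chr1:139176649-139379316, minus strand). It had 2.04, 1.83, 2.28 and 1.49 CPM in CON and 3.98, 2.93, 3.33 and 2.77 CPM in cKO. The groups were apart, with the widest gap between CON 4 and cKO 1, and the log2 fold change was 0.78 (edgeR SE 0.20, adjusted p = 0.0475). The call was lost without a count filter (0.0597) and without any single library but cKO 4 (0.0545 to 0.134).

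2310009B15Rik, a protein-coding gene of no assigned role (chr1:138851979-138856854, minus strand), fell. It had 12.7, 12.6, 11.7 and 11.6 CPM in CON and 9.48, 9.91, 8.98 and 9.75 CPM in cKO, with a gap between the groups wider than the range within either. The log2 fold change was -0.35 (edgeR SE 0.08, adjusted p = 0.0409). Leaving out any of the 8 libraries lost the call (adjusted p 0.051 to 0.124), with log2 fold changes that stayed between -0.37 and -0.32.

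**Figure D2:**
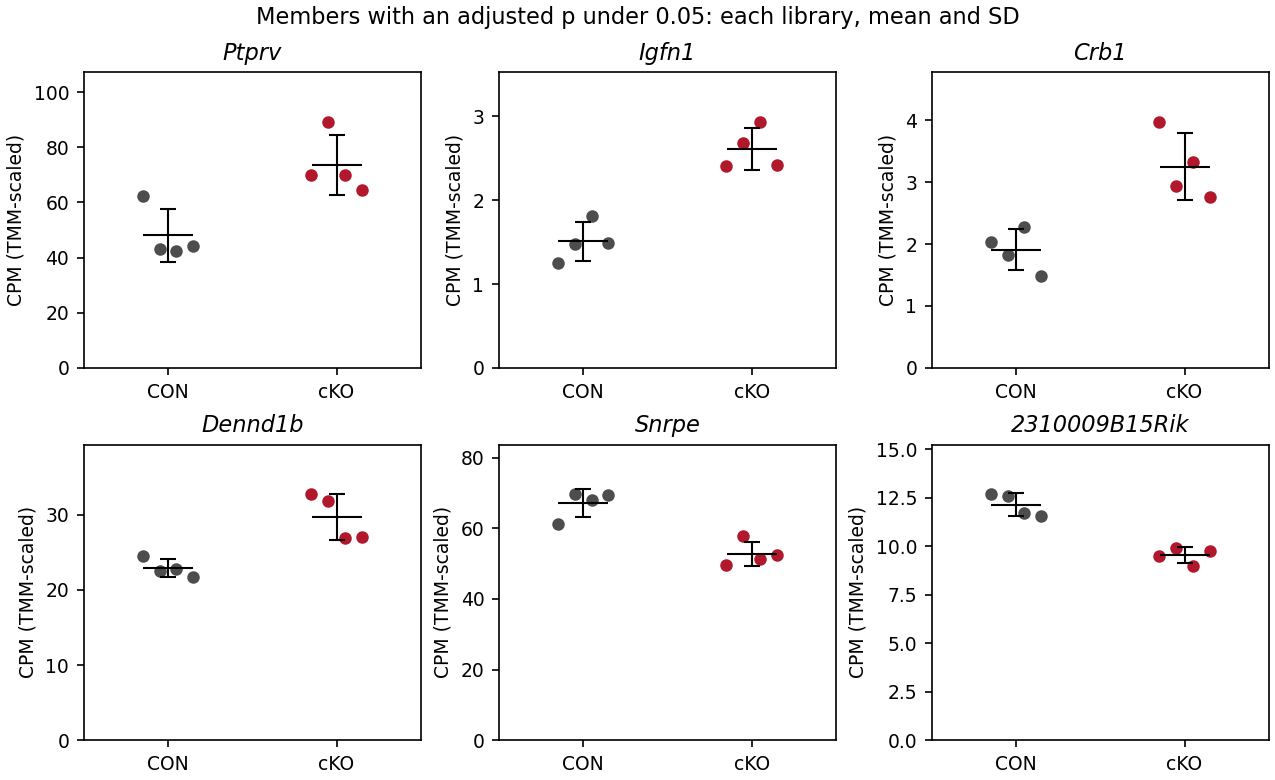
TMM-scaled CPM (y axis, from 0) in the 4 CON (grey) and 4 cKO (red) libraries for the 6 members with an adjusted p under 0.05. Points are libraries, and the black bar with whiskers is the mean ± SD. In Ptprv, Igfn1, Crb1 and Dennd1b every cKO point is above every CON point, and in Snrpe and 2310009B15Rik every cKO point is below.

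The 100 bases before the start in the RefSeq promoter table (GRCm38.p6) are given 5′ to 3′ on the strand of the gene, because these members carry the differences (Ptprv has no entry). They are all in lower case since none holds the NR5A element searched for below. The Igfn1 and Crb1 entries lie inside the annotated spans of these genes, the first of them before the start of Tmem9 (chr1:136008219).
Snrpe, chr1:133610281-133610380, minus strand: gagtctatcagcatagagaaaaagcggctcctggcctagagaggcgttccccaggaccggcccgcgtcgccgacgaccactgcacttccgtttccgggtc
Dennd1b, chr1:138963609-138963708, plus strand: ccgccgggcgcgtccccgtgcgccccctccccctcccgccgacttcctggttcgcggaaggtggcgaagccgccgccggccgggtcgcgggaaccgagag
Igfn1, chr1:136006343-136006442, minus strand: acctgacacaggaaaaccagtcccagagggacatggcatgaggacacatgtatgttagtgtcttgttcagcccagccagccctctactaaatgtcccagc
2310009B15Rik, chr1:138856855-138856954, minus strand: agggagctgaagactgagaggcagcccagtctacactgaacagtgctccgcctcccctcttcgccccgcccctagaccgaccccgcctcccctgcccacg
Crb1, chr1:139377077-139377176, minus strand: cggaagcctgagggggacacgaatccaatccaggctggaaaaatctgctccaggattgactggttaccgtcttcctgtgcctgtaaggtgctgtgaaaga

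The element bound by NR5A receptors was searched as CAAGGTCA or CAAGGCCA on both strands from 250 bases before to 50 bases after the start site. It was present in 4 of 98 members with a promoter entry (4.08%) against 1212 of 27025 promoters in all (4.48%). Among genes tested, these were 4 of 72 members (5.56%) and 432 of 12063 genes (3.58%). The 4 matches are shown within 60 bases each, with the matching letters in capitals, because the study removes a receptor that binds this element. The Nfasc match lies inside the annotated span of that gene (chr1:132564690-132741848).
Nfasc, chr1:132642963-132643022, minus strand: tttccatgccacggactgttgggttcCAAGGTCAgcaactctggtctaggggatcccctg
Chit1, chr1:134111146-134111205, plus strand: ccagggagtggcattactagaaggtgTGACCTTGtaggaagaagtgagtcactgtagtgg
Chil1, chr1:134182056-134182115, plus strand: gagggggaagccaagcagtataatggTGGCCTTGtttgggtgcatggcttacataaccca
Syt2, chr1:134646419-134646478, plus strand: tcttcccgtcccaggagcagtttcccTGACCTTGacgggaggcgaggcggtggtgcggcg

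Nfasc and Syt2 encode an axonal adhesion molecule and a synaptic vesicle calcium sensor, Chit1 a chitinase of macrophages and Chil1 a chitinase-like protein of neutrophils and other cells. None of these genes passed the test. Syt2 had 4.44 to 6.06 CPM in CON against 5.51 to 7.0 CPM in cKO (log2 fold change 0.25, edgeR SE 0.14, adjusted p = 0.251), and Nfasc had 1.99 to 2.98 CPM in CON against 2.24 to 4.02 CPM in cKO (0.21, edgeR SE 0.22, adjusted p = 0.572). Chit1 had 0.704 to 0.993 CPM in CON and 1.21, 2.06, 1.34 and 0.691 CPM in cKO, so that cKO 4 was the lowest of all (0.66, edgeR SE 0.33, adjusted p = 0.21).

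A further 10 members had the next smallest p-values without passing. Of these, Lhx9, Slc45a3, Kif14, Etnk2 and Klhl12 had positive values and Rnpep, Lad1, Csrp1, Tmem9 and Phlda3 negative ones. Lhx9 encodes a LIM homeodomain transcription factor that the mouse needs to form a gonad, and lies 1.86 Mb from Nr5a2. It had 19.4, 12.2, 14.0 and 14.8 CPM in CON and 30.1, 28.1, 21.3 and 17.4 CPM in cKO. The overlap came from cKO 4, which was under CON 1. The log2 fold change was 0.69 (edgeR SE 0.19, adjusted p = 0.0599), and it was 0.84 (adjusted p = 0.0302) without CON 1, 0.81 (0.0374) without cKO 4 and 0.37 (0.242) without cKO 1 and cKO 2.

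Kif14, a mitotic kinesin of cytokinesis, is one of the nearest protein-coding neighbours of Nr5a2 at 0.29 Mb. It had 48.3, 39.7, 40.6 and 32.0 CPM in CON and 67.9, 60.0, 51.6 and 45.1 CPM in cKO. Most cKO libraries were higher, but cKO 4 was under CON 1, and the log2 fold change was 0.49 (edgeR SE 0.15, adjusted p = 0.0703). Slc45a3, a solute carrier known from prostate, had 10.2 to 13.5 CPM in CON and 23.5, 13.9, 18.1 and 14.5 CPM in cKO (0.60, edgeR SE 0.17, adjusted p = 0.0609). Klhl12, an adaptor of a cullin ubiquitin ligase, had 31.5 to 39.9 CPM in CON against 42.9 to 51.8 CPM in cKO (0.33, edgeR SE 0.09, adjusted p = 0.0509). Slc45a3 and Klhl12 were thus higher in every cKO library, as were Klhdc8a (0.74, edgeR adjusted p = 0.173) and the kinase gene Dstyk (0.08, edgeR adjusted p = 0.236). Etnk2, an ethanolamine kinase, had 23.7 to 31.0 CPM in CON against 29.8 to 40.5 CPM in cKO (0.39, edgeR SE 0.11, adjusted p = 0.0561).

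The negative ones were mostly small. Rnpep, which encodes aminopeptidase B, had 47.7 to 51.6 CPM in CON and 48.2, 39.6, 40.5 and 43.7 CPM in cKO (-0.22, edgeR SE 0.07, adjusted p = 0.073). Phlda3, a p53 target that restrains Akt, had 33.9 to 42.1 CPM in CON against 27.9 to 37.9 CPM in cKO (-0.26, edgeR SE 0.11, adjusted p = 0.142). Csrp1 and Lad1 are described below with the genes they moved with.

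**Figure D3:**
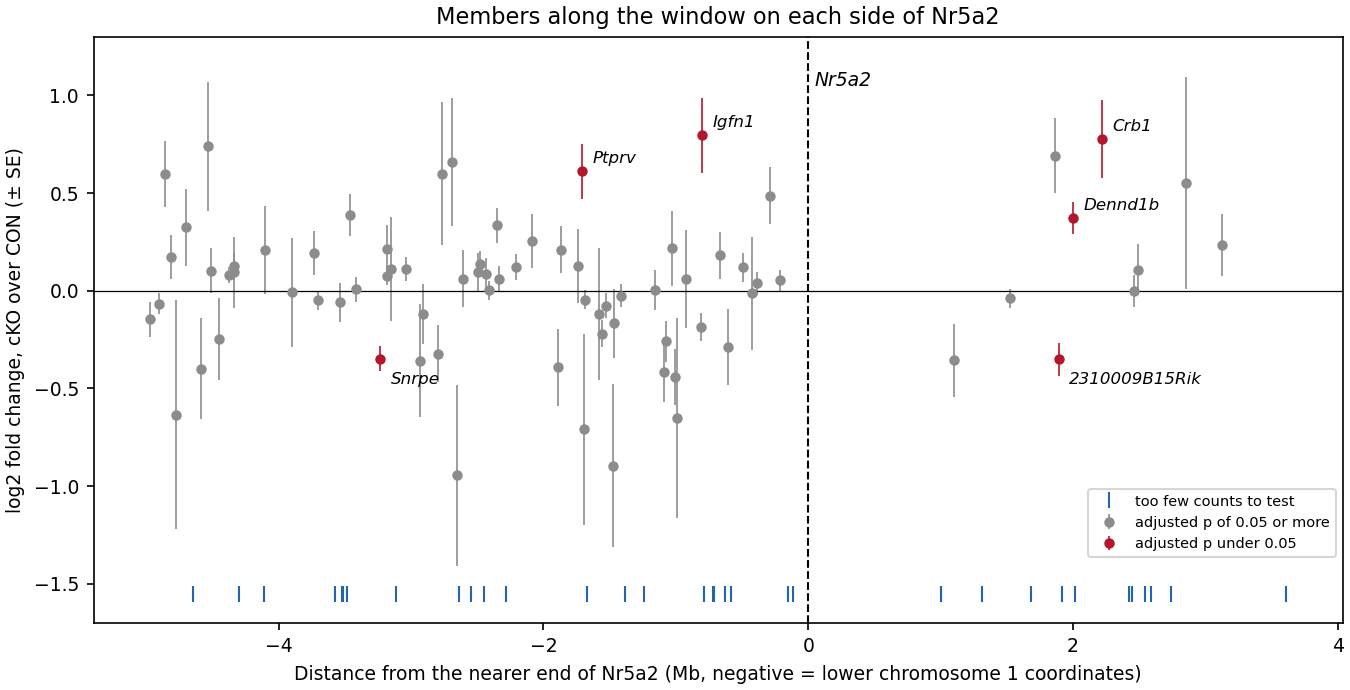
Log2 fold change of cKO over CON (y axis, ± SE) of the 78 members tested against the distance in Mb from the nearer end of Nr5a2 (dashed line), with lower coordinates to the left. Members with an adjusted p under 0.05 are red and named, and blue ticks mark members with too few counts to test. The values lie on both sides of 0 at every distance, and the red points lie between 0.8 and 3.23 Mb from Nr5a2.

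In steps of 1 Mb, the differences showed no steady order by distance from Nr5a2. Of the 42 members tested within 2.5 Mb, 5 had an adjusted p under 0.05 in edgeR (6.92% of all genes). Among these were the 3 past both thresholds (1.41% of all genes), and the part of distance was not tested. Zfp281, a zinc finger gene of embryonic stem cells and the nearest tested neighbour at 0.21 Mb, had 41.2, 39.1, 36.5 and 37.5 CPM in CON and 41.1, 38.9, 40.5 and 39.6 CPM in cKO. The ranges coincided, and the log2 fold change was 0.05 (95% interval -0.06 to 0.16, edgeR adjusted p = 0.568). The still closer long noncoding genes Gm19705 and Platr22, at 0.15 and 0.12 Mb, were too low to test, with 0.281 to 0.314 CPM in CON against 0.312 to 0.522 CPM in cKO for Gm19705, and at most 0.176 CPM for Platr22. Of the 11 members tested within 1 Mb, 1 had an adjusted p under 0.05 (Igfn1), where 6.92% of all genes tested did. Of those from 1 to 2, 2 to 3, 3 to 4 and 4 to 5 Mb, these were 2 of 21, 2 of 20, 1 of 12 and 0 of 14. The median log2 fold changes in the same order of distance were 0.05, -0.12, 0.10, 0.09 and 0.10.

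The side of higher coordinates is a gene desert near Nr5a2, with no member in its first 1 Mb. Its nearest members are Mir181a-1 and Mir181b-1, which had 0 counts in every library, and Ptprc, described below. Of the 10 members tested on this side, 3 had an adjusted p under 0.05 (2310009B15Rik, Dennd1b and Crb1), and of the 68 on the other side also 3 (Igfn1, Ptprv and Snrpe), beside 6.92% of all genes. The medians were 0.17 and 0.06. With 10 genes the first of these was unsteady, since it lay between -0.0032 without cKO 1 and 0.23 without cKO 2, and no test of the sides was made.

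At the low edge of the window, the genes just inside had negative log2 fold changes, and those crossing it or just outside had positive ones. Rab29, a small GTPase gene and the outermost member on the low side, had a log2 fold change of -0.15, and the chromatin protein gene Nucks1 next to it -0.07. Slc41a1, a magnesium transporter gene that crosses the edge, had 0.12, and Pm20d1, just outside, 0.29. On the high side, 4930590L20Rik (0 counts) was the last inside, and Cdc73 (0.05) and B3galt2 (0 counts) the first outside, at more than 6 Mb from Nr5a2. None of these genes at the edges had an adjusted p under 0.05. Over 10 Mb on each side, 10 of 113 genes tested had an adjusted p under 0.05 (all genes 6.92%), and 3 of them also passed the fold threshold, the same 3 as within 5 Mb.

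**Figure D4:**
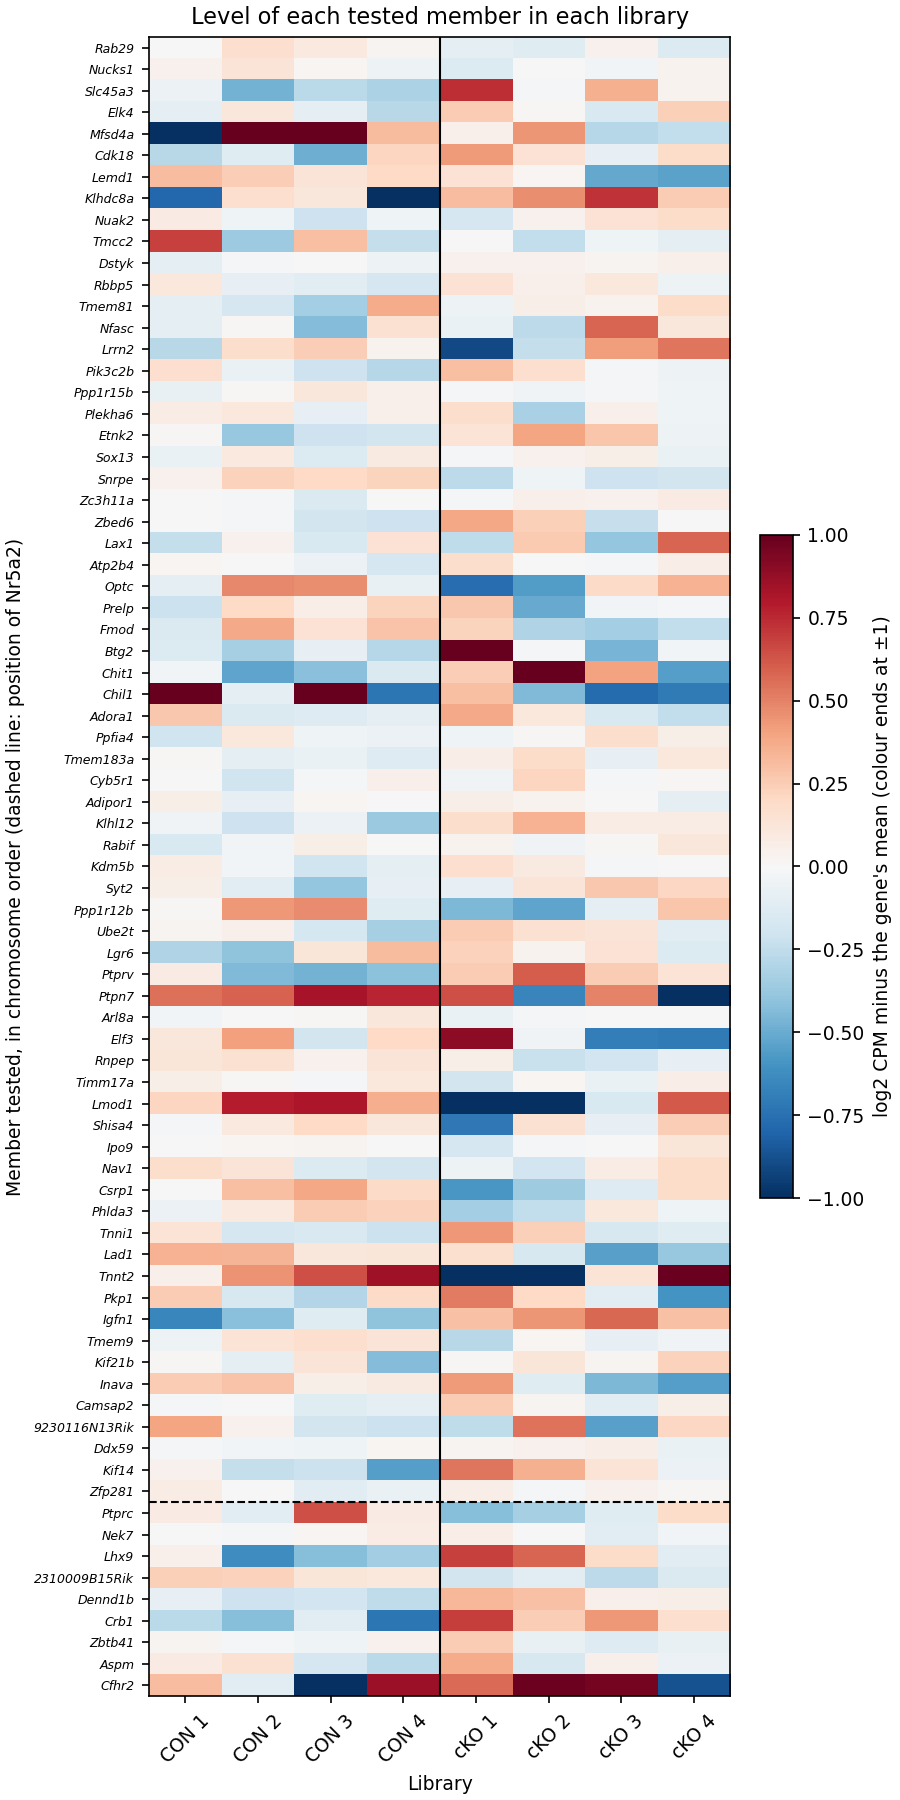
Log2 CPM of the tested members described here (rows, in chromosome order) in each library (columns), as the difference from the mean of the gene over the 8 libraries, with colour ending at ±1. The dashed line marks the position of Nr5a2. The consecutive rows 2310009B15Rik (lower in cKO), Dennd1b and Crb1 (both higher) are each set apart by genotype, and their nearness was not tested. Single libraries stand out in rows such as Btg2 (cKO 1) and Lmod1 (cKO 1 and cKO 2).

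Several genes for contractile proteins differed widely between libraries of one genotype. Of 10 genes in the muscle and sarcomere list, which includes Nav1, also in the neural list, 7 were tested, with a median log2 fold change of -0.39. Of these, Igfn1 rose and 0 fell at an adjusted p under 0.05 (6.92% of all genes). Csrp1, a LIM protein of smooth muscle, had the highest level per length of any member, with 207 CPM per kb of exon. Its levels were 395, 489, 517 and 454 CPM in CON and 265, 311, 363 and 450 CPM in cKO, so that only cKO 4 lay within the CON range (-0.42, edgeR SE 0.15, adjusted p = 0.113). Lmod1, the actin nucleator of smooth muscle, had 25.2, 37.5, 38.1 and 28.0 CPM in CON and 8.20, 9.29, 19.5 and 33.3 CPM in cKO. Its levels were lowest in cKO 1 and cKO 2, and in cKO 4 as high as in CON (-0.90, edgeR SE 0.42, adjusted p = 0.195).

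Tnnt2, the cardiac troponin T gene, repeated this order at a low level, with 2.25, 2.96, 3.39 and 3.90 CPM in CON and 0.723, 0.748, 2.38 and 4.29 CPM in cKO (-0.65, edgeR SE 0.51, adjusted p = 0.428). Ppp1r12b, a myosin phosphatase subunit, had 19.3 to 29.0 CPM in CON and 15.3, 14.5, 19.6 and 25.4 CPM in cKO (-0.39, edgeR SE 0.20, adjusted p = 0.219). The 8 smooth muscle markers, none at 0 and none with an adjusted p under 0.05, summed to 2281 to 3250 CPM in CON, while cKO 1 to 4 had sums of 690, 984, 1894 and 2499 CPM. Csrp1, Lmod1, Tnnt2 and Ppp1r12b were low in cKO 1 and cKO 2 as these markers were, and the part of smooth muscle content in their values was not tested. Among the other tested genes of the list, Tnni1, a slow muscle troponin gene, was highest in cKO 1 (3.86 CPM, log2 fold change 0.22), Nav1 had 86.8 to 111.6 CPM in CON against 86.6 to 111.9 CPM in cKO (0.01), and Igfn1 was higher in every cKO library. Without cKO 4, Lmod1 was called lower (-1.38, edgeR adjusted p = 0.0427) and Csrp1 had an adjusted p of 0.0384 (-0.57).

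**Figure D5:**
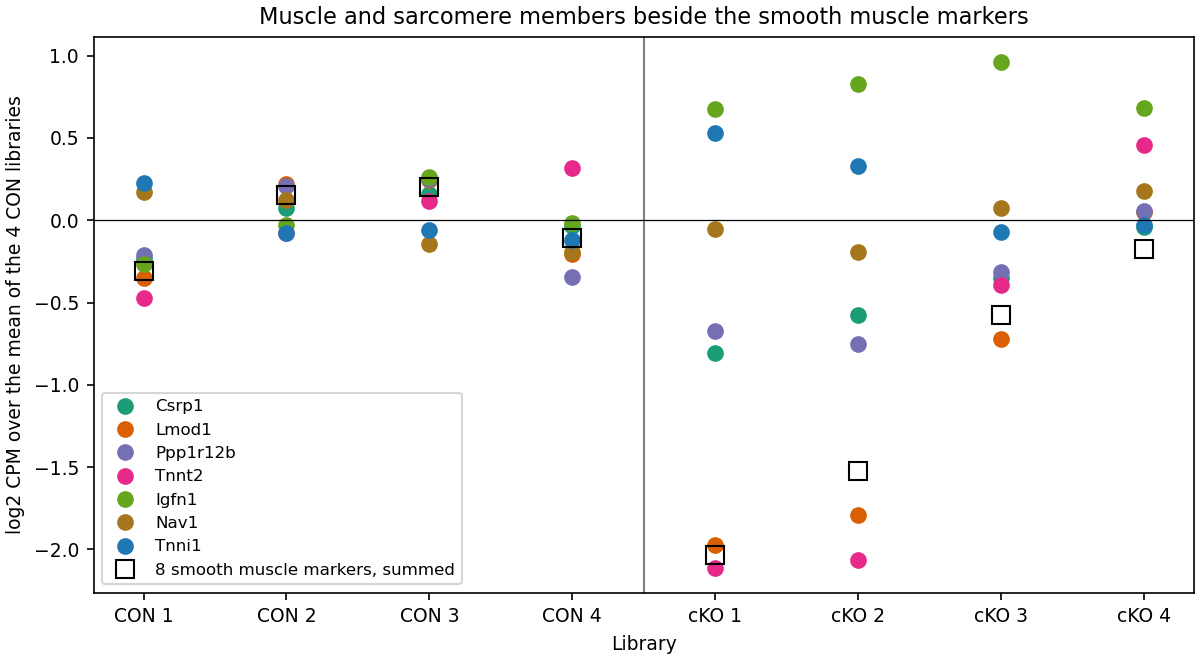
Log2 CPM over the mean of the 4 CON libraries (y axis) for the 7 tested members of the muscle and sarcomere list and for the sum of 8 smooth muscle markers (open squares) in each library (x axis). Nav1 is also in the neural list. Csrp1, Lmod1, Ppp1r12b, Tnnt2 and the marker sum are low in cKO 1 and cKO 2 and, among the cKO libraries, highest in cKO 4. Igfn1 and Tnni1 are above the CON mean in cKO 1 and cKO 2, and Nav1 stays near it. In cKO 4 the marker sum was 2499 CPM against 2281 to 3250 CPM in CON.

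In Lad1, Elf3 and Inava, chosen after their values were seen, cKO 1 stood above the other cKO libraries. Lad1, which encodes the basement membrane protein ladinin, had 23.4, 23.3, 19.9 and 19.9 CPM in CON and 20.5, 16.5, 12.6 and 14.1 CPM in cKO. Outside cKO 1 all cKO values were under the CON values. The log2 fold change was -0.44 (edgeR SE 0.14, adjusted p = 0.0822), and it was -0.60 (adjusted p = 0.0186) without cKO 1. Elf3, an epithelial ETS factor, had 15.9 to 24.1 CPM in CON and 33.6, 17.6, 11.2 and 11.1 CPM in cKO, and Inava, a regulator of epithelial junctions, had 12.4 to 14.6 CPM in CON and 16.0, 11, 8.73 and 8.16 CPM in cKO. Both were highest of all in cKO 1 and lowest of all in cKO 3 and cKO 4. The 8 surface epithelium markers, none at 0 and none with an adjusted p under 0.05, summed to 1450 to 1825 CPM in CON, while cKO 1 to 4 had sums of 2145, 1609, 1128 and 1278 CPM, and their part in these values was not tested. Without cKO 1 and cKO 2 together, the called members were Lad1, Elf3 and Inava, all lower, in place of Igfn1, Ptprv and Crb1.

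The immune cell genes had 5 members tested and 0 with an adjusted p under 0.05 in edgeR, with 0 also at an unadjusted p under 0.05. Ptprc, which encodes the leukocyte antigen CD45 and is the nearest tested gene on the high side (1.10 Mb), had 8.63, 7.53, 12.7 and 8.65 CPM in CON and 6.07, 6.48, 7.52 and 9.27 CPM in cKO. The groups overlapped, and the log2 fold change was -0.36 (edgeR SE 0.19, adjusted p = 0.239). The 10 leukocyte markers, none at 0, summed to 125 to 183 CPM in CON against 108 to 140 CPM in cKO, with CON 3 highest as for Ptprc. Chil1 had the most negative value of all members, with 3.45, 1.58, 4.56 and 1.03 CPM in CON and 2.09, 1.25, 0.993 and 1.04 CPM in cKO (-0.94, edgeR SE 0.46, adjusted p = 0.208). Only CON 1 and CON 3 lay above the cKO range, and without these 2 libraries the value was 0.03. The 12 neutrophil markers (6 tested, none with an adjusted p under 0.05) were high in the same libraries, with summed levels of 104, 20.8, 178 and 28.5 CPM in CON against 17.6 to 25.1 CPM in cKO. Elane was at 0 in CON 1, CON 2 and all cKO libraries, and Mpo, Camp and Retnlg in some cKO libraries. Red blood cell lineage markers (9 genes, 4 tested, none with an adjusted p under 0.05) were also high in sum there. They summed to 150, 9.43, 87.7 and 15.4 CPM in CON against 14.7 to 21.0 CPM in cKO. Among them, Rhag and Hemgn were at 0 in some libraries. The part of neutrophils or of red blood cells in the value of Chil1 was not tested.

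The small leucine-rich proteoglycans Fmod, Prelp and Optc were listed together with Lad1 and Pkp1, which are also in the list for apical junctions. Of these 5, 0 had an adjusted p under 0.05 in edgeR (1, Lad1, had an unadjusted p under 0.05 and an adjusted p of 0.041 in DESeq2). Fmod, which organises collagen fibrils, had 71.3, 102, 86.9 and 96.0 CPM in CON and 92.0, 63.8, 62.4 and 66.6 CPM in cKO. All cKO libraries but cKO 1 were under the CON range (-0.32, edgeR SE 0.15, adjusted p = 0.182). Optc, known from the vitreous of the eye, had at most 2.96 CPM in any library, and its log2 fold change of -0.36 turned to 0.04 without cKO 1 and cKO 2.

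The genes of cell division numbered 7, all tested, with 0 past an adjusted p of 0.05 in edgeR, 1 (Kif14) at an unadjusted p under 0.05 and 6 of 7 positive. Ube2t, a ubiquitin-conjugating enzyme of the Fanconi pathway, had 7.68 to 9.99 CPM in CON against 8.92 to 11.5 CPM in cKO (0.21, edgeR SE 0.12, adjusted p = 0.277). Aspm, a spindle pole protein gene, had 41.9 to 56.3 CPM in CON against 45.3 to 65.5 CPM in cKO (0.11, edgeR SE 0.13, adjusted p = 0.62). The ranges overlapped for each of these genes.

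The 16 genes of transcription and chromatin had 14 tested, 0 with an adjusted p under 0.05 in edgeR, 2 with an unadjusted p under 0.05 (Lhx9 and Phlda3) and a median of 0.07. Kdm5b, a histone H3 lysine 4 demethylase, had 157 to 190 CPM in CON against 178 to 203 CPM in cKO (0.12, edgeR SE 0.07, adjusted p = 0.245). Sox13 had a log2 fold change of 0.01 (95% interval -0.12 to 0.13). Btg2, an antiproliferative early response gene, had 46.5 to 55.2 CPM in CON and 148, 58.0, 42.5 and 57.5 CPM in cKO, so that cKO 1 stood far above all other libraries (0.60, edgeR SE 0.37, adjusted p = 0.318).

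The remaining role groups held few changes at an adjusted p under 0.05, which 6.92% of all genes tested passed. Of 7 genes tested for membrane traffic, Dennd1b rose and 0 fell. Of 7 for RNA processing, import and turnover, Snrpe fell and 0 rose. Of 5 for polarity and apical junctions (3 positive, 2 negative), Crb1 and Dennd1b, which is also in the membrane traffic group, rose and 0 fell. Of 5 receptors and ligands, Ptprv rose. The 8 neural, 3 transporter and 3 lipid genes tested had 0 with an adjusted p under 0.05 in edgeR, and 0, 1 (Slc45a3) and 1 (Etnk2) at an unadjusted p under 0.05. Atp2b4, a plasma membrane calcium pump, had 145 to 165 CPM in CON against 161 to 184 CPM in cKO (0.11, edgeR SE 0.06, adjusted p = 0.24), Pik3c2b, a class II phosphoinositide kinase, 22.4 to 30.8 and 26.3 to 33.6 CPM (0.20, edgeR adjusted p = 0.28), and Kif21b, a neuronal kinesin, 9.74 to 14.3 and 13.2 to 15.4 CPM (0.18, edgeR adjusted p = 0.341). In each of these 3 the ranges overlapped. DESeq2, which called more genes throughout (14.1% at an adjusted p under 0.05), gave 14 members an adjusted p under 0.05. These were the same 6 together with Lhx9, Klhl12, Slc45a3, Etnk2, Kif14, Csrp1, Lad1 and Rnpep, so that no immune or neural gene passed with it.

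cKO 1 was the library with the highest value in 26 of the 78 members (33.3%), against 22.9% over all genes tested, and the lowest in 14 (17.9%) against 25.4%. Without it 1 member was called (Lad1, lower), with 1.1% of all genes called, and 6 members had an adjusted p under 0.05, against 5.63% of all genes. The 6 were Snrpe, Dennd1b, Lad1, Rnpep, Inava and Fmod. Snrpe and Dennd1b are in both sets of 6.

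The 34 members not tested had low counts throughout. In 15 of them no read was counted in any library, among them Ren1 (renin), Mybph, F13b, Atp6v1g3 and 4 of the 5 microRNA genes, whose short products an mRNA library does not capture. The other 19 had at most 84 counts over the 8 libraries. Kiss1, the kisspeptin gene, had 11 counts in 6 libraries and at most 0.138 CPM, and Myog, the muscle regulator, 2 counts in 1 library. At this depth no difference between the genotypes could be detected for these genes.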

How the data were processed

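The deposited counts are whole reads per gene, which the authors made from a stranded mRNA library read in pairs, after removal of reads with a quality score under 20, by alignment to GRCm38 (mm10) with STAR and counting with featureCounts. Tool versions, the annotation and the strand setting of the counting are not given in the sources used here. A table with the fold changes and p-values of the authors' own DESeq2 comparison was not used. Count columns match a genotype but no single sample title, and each library is called by its genotype and column number.

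All genes were fitted together with edgeR 4.0.16 under R 4.3.3, using the filter filterByExpr, TMM factors and the robust quasi-likelihood F test with Benjamini-Hochberg adjustment. Standard errors (SE) are log2 fold changes divided by the square root of F. Gene IDs were joined to RefSeq GRCm38.p6 (99.7% matched), which gave positions and start sites. Exon lengths came from GENCODE M21. No libraries agreed within counting noise (chi-square per gene of at least 3.67). In simulated data with the counts of this comparison (15257 genes), edgeR recovered 64.2% of 1.5-fold, 85.1% of 2-fold and 95.5% of 3-fold changes, with 17 false calls. Recovery there meant an adjusted p under 0.05 in the right direction, with no fold threshold. Genes of the lowest levels were not among those changed. Alternatives were RLE and library-size scaling, no count filter, at least 10 counts in every library, DESeq2 1.42.0, limma-voom (limma 3.58.1), leaving out libraries, and windows of 2.5 and 10 Mb or including genes that cross an edge.

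The members and all lists were chosen with earlier results of these data known. Named are all members with an adjusted p under 0.05, the next 10 by p, the 3 nearest on each side, 2 genes on each side of each edge, and up to 2 tested members of each role group. Other members named were picked with their values in view. The results of 1 member are left out of the text.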

Additional observations from a re-analysis of the deposited data

Results flagged for a closer look

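In each genotype, the library farthest from the other 3 was examined for the tested members reported here, and 7 of 154 such sets held a library set far apart, where chance gives about 7.7. Of these, 3 were in cKO 1. Btg2 had 148 CPM there and 42.5 to 58.0 CPM in the other cKO libraries. Fmod had 92.0 CPM there against 62.4 to 66.6 CPM and the zinc finger gene Zbtb41 had 64.9 against 49.8 to 51.6 CPM.

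CON 1 was set apart in 3. Ptprv had 62.4 CPM there and 42.5 to 44.2 CPM in the other CON libraries, Adora1, an adenosine receptor gene, 61.4 against 45.9 to 47.6 CPM, and Tnni1, a slow muscle troponin gene, 3.14 against 2.46 to 2.57 CPM. In cKO 2, the reductase gene Cyb5r1 had 27.5 CPM against 23.1 to 23.9 CPM.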

How the results depend on the processing

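The count of members past both thresholds (3) was the same under RLE scaling, library-size scaling and at least 10 counts in every library. It was also 3 in every window, with 42, 78 and 113 genes tested within 2.5, 5 and 10 Mb. DESeq2 called 5 (Igfn1, Ptprv, Slc45a3, Lhx9 and Crb1, with 2.76% of all genes called). With limma-voom it was 4 (Igfn1, Ptprv, Lhx9 and Crb1, with 1.97% of all genes). Without a count filter it was 0 (0.785% of all genes), and 16 members had an unadjusted p under 0.05 there (23.2%). Without CON 1 and CON 3 together it was 1 (Ptprv, with 0.44% of all genes). Leaving out 1 library gave 0 to 6, with 0% to 2.65% of all genes called. Without CON 2 or CON 3, edgeR gave 0 genes of the whole table an adjusted p under 0.05. In these settings 16 and 14 members had an unadjusted p under 0.05 (21.6% and 21.2% of all genes), and other tools were not run there. Without cKO 1 and cKO 2 the count was 3, of different genes, with 1.4% of all genes called. The count at an adjusted p under 0.05 (6) was 14 with DESeq2 (14.1% of all genes) and 9 with limma-voom (8.3%). It was 2 without a count filter (4.11%) and 1 without CON 1 and CON 3 (1.01%). In the 2.5 Mb window it was 5 of 42 and in the 10 Mb window 10 of 113 (6.92% of all genes). Without single libraries it was 0 to 11 (0% to 11.5% of all genes). The count at an unadjusted p under 0.05 (17) was 28 of 113 in the 10 Mb window (28.8% of all genes). Without single libraries it was 14 to 22 (21.2% to 30.8% of all genes). The median log2 fold change (0.06) was 0.096 with library-size scaling, which moves all genes, 0.0040 in the 2.5 Mb window and 0.028 to 0.068 without single libraries. On the low side (0.06) these were 0.091 with library-size scaling and 0.025 to 0.058 without single libraries. On the high side (0.17) they were 0.21 with library-size scaling, 0.23 without a count filter, 0.11 with at least 10 counts, 0.26 with DESeq2, 0.019 without cKO 1 and cKO 2, and -0.0032 to 0.23 without single libraries. Reversed were Chil1 (0.033 without CON 1 and CON 3) and Optc (0.036 without cKO 1 and cKO 2). Where no cause is given, the cause was not tested. No paired analysis was possible because the labels of the genotypes share no replicate number and the count columns match no single sample title.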
